A study of Mus musculus with 4 samples.

Results

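The genes described here carry peptides and lipids to the cell surface on major histocompatibility complex (MHC) class I and class I-like molecules. They are Nlrc5, a transactivator of class I genes, the peptide transporter subunits Tap1 and Tap2, Tapbp, B2m, the inducible proteasome subunits Psmb8, Psmb9 and Psmb10, and the heavy chain genes H2-Q4 and Cd1d1. These 10 members were chosen by name out of 19938 measured genes, with earlier results of these data known. Each was found on the array under its own symbol. For each gene the probe set with the highest mean log2 intensity over the 4 arrays was used, and Nlrc5 was the member with several probe sets, 19 in all. Expression was compared between the mouse cell lines TS2 and TS1, both untreated and both given in the labels as lines that come from CD4+ T lymphocytes. Cells of both were grown in Iscove-Dulbecco's medium with murine interleukin-9, and each line is represented by 2 arrays of total RNA, called A and B. Each difference subtracts the TS1 mean from the TS2 mean of log2 intensities and is given with the SE, limma's standard error, over 2 arrays in each line. Calls used limma with Benjamini-Hochberg adjustment over all 19938 genes at an adjusted p under 0.05. The labels mention duplicate cultures without saying how far apart they were kept, so p-values measure the spread between these arrays. With 2 arrays a line, the smallest p of an exact permutation test (two-sided) is 0.333. In lysates of whole cultures, fewer expressing cells and less RNA per cell cannot be told apart.

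In most cells, proteasomes cut cytosolic proteins, the transporter made of TAP1 and TAP2 moves the peptides into the endoplasmic reticulum, and tapasin holds empty class I molecules beside it until a peptide binds. Interferon gamma induces the inducible proteasome subunits, which take the place of the constitutive ones and change which peptides are made. NLRC5 acts in the nucleus on class I promoters together with factors bound to their conserved X and Y boxes, as the related protein CIITA does on class II promoters, and is prominent in lymphocytes.

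The letters of 4 upstream stretches are shown. Those of B2m and H2-Q4 hold matches to the elements that NLRC5, interferon regulatory factors and NF-kappa-B are known to work through. Those of Psmb9, Tap1 and Psmb8 are from members whose windows held no match to the patterns searched for these elements. Other forms of the elements were not searched, so the lack of a match does not show that an element is absent. RefSeq's table of promoter windows (GRCm38.p6) held 7 of the 10 members, and Nlrc5, Tap2 and Cd1d1 were not among them. The X-Y element searched was TGAC, then 21 bases of any kind, then ATTGG, on either strand. Of the X box, TGAC alone was searched. That spacing was chosen after reading the B2m and H2-Q4 sequences. In the 250 bases before the gene start it occurred in 0.222% of all 32851 windows. On both strands too, the interferon-stimulated response element was searched as GAAA, any 2 bases and GAAA (2.98% of windows), and in a shorter form, GAA, any 2 bases and GAAA (6.31%). The kappa-B site was searched as GGGA, any base, T, any 2 bases and CC (3.44%). The last 5 letters of the X-Y element are CCAAT on the other strand, the core bound by NF-Y, and the 2 matches overlap. In the first pair of sequences, each of 250 bases ending just before the gene start, capitals mark these elements. B2m lies on the plus strand at chr2:122147437-122147686 and H2-Q4 on the plus strand at chr17:35379367-35379616.
B2m: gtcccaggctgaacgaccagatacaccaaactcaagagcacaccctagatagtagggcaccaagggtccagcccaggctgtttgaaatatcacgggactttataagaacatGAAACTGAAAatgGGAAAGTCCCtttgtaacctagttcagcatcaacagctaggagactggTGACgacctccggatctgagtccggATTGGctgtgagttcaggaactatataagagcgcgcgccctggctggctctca
H2-Q4: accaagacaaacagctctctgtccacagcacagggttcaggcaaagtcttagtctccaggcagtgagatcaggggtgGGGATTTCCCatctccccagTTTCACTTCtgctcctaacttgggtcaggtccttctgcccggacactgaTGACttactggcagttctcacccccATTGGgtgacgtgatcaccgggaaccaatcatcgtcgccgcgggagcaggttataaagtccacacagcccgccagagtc
The B2m stretch held the longer response element from 139 to 130 bases before the gene start, a kappa-B match on the minus strand from 126 to 117, and the X-Y element from 78 to 49. The H2-Q4 stretch held a kappa-B match from 173 to 164 bases before the start, the shorter response element on the minus strand from 153 to 145, and the X-Y element from 104 to 75. Of the 7 members with a window, these were the 2 with an X-Y element or a kappa-B match. Psmb8, Psmb9, Psmb10 and Tap1, which held neither in this window, were called higher in TS2 too. Among all motifs searched, Tapbp had CCAAT matches alone and Psmb10 had no match. The classical class I genes H2-K1 and H2-D1 held the X-Y element at the same spacing, so the 4 copies can be read one under the other. Capitals mark the fixed letters, and H2-K1 is read on the minus strand.
B2m: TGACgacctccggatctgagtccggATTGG
H2-Q4: TGACttactggcagttctcacccccATTGG
H2-K1: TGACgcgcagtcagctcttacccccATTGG
H2-D1: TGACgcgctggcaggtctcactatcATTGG
Over the 21 free positions the H2-Q4 copy shared 14 letters with H2-K1, 14 with H2-D1 and 5 with B2m. They lie at chr2:122147609-122147638 for B2m, and at chr17:35379513-35379542, chr17:34000359-34000388 and chr17:35262993-35263022 for H2-Q4, H2-K1 and H2-D1.

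Psmb9 and Tap1 are read away from each other from a shared stretch of 225 bases (chr17:34187331-34187555, printed on the plus strand, on which Tap1 is read). It is shown because both genes were higher in TS2. Capitals mark TGACG, the core of a cyclic AMP response element (17.8% of all windows on either strand), and CCAAT (33.8%), both matched on the printed strand.
Psmb9 to Tap1: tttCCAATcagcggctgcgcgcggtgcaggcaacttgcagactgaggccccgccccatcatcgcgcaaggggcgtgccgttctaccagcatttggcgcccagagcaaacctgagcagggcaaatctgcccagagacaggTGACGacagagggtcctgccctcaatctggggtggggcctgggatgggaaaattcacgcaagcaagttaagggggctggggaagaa
These letters held no X-Y element in this window. Psmb8 had a match to TTCNNNGAA, the pattern of a gamma-activated sequence, which reads the same on both strands (7.02% of windows), from 97 to 89 bases before its start, in the stretch chr17:34198068-34198136 on the plus strand.
Psmb8: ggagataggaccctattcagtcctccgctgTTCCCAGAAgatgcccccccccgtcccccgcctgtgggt
Of 43 measured genes whose windows held the X-Y element, 4 were higher in TS2 and 5 lower, against 5.05% and 8.45% of all genes. The 4 include B2m and H2-Q4, from which the spacing was taken. The median difference of the 43 was 0.0078, against 0.013 over all genes. A match in a window is a description of its letters and not evidence of binding.

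Most of the members were higher in TS2. Of the 10 members, 7 were called higher in TS2 (Nlrc5, Tap1, B2m, Psmb8, Psmb9, Psmb10 and H2-Q4), 1 was called lower (Cd1d1), and Tap2 and Tapbp did not pass. Among all genes 5.05% were called higher in TS2 and 8.45% lower. As the members were chosen with earlier results known, these shares describe the array and are not a test of the members. The median difference of the members was 0.85, against 0.013 over all 19938 genes. TS2 and TS1 arrays did not overlap in 9 of the 10 members, all but Tap2, and in 58.4% of all genes. At least a 2-fold excess in TS2 was reached by 3 of the called members, Nlrc5, Tap1 and H2-Q4, against 2.25% of all genes, and 1 was at least 2-fold lower, Cd1d1, against 2.94%. With 1 array left out, the differences ran from 1.13 to 1.31 for Nlrc5, 1.05 to 1.17 for Tap1 and 2.12 to 2.60 for H2-Q4. They ran from 0.61 to 0.77 for B2m, 0.53 to 0.73 for Psmb8, 0.80 to 1.10 for Psmb9 and 0.79 to 0.98 for Psmb10. Without TS2 A or TS2 B fewer members were called, and so were fewer genes over the whole array.

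**Figure D1:**
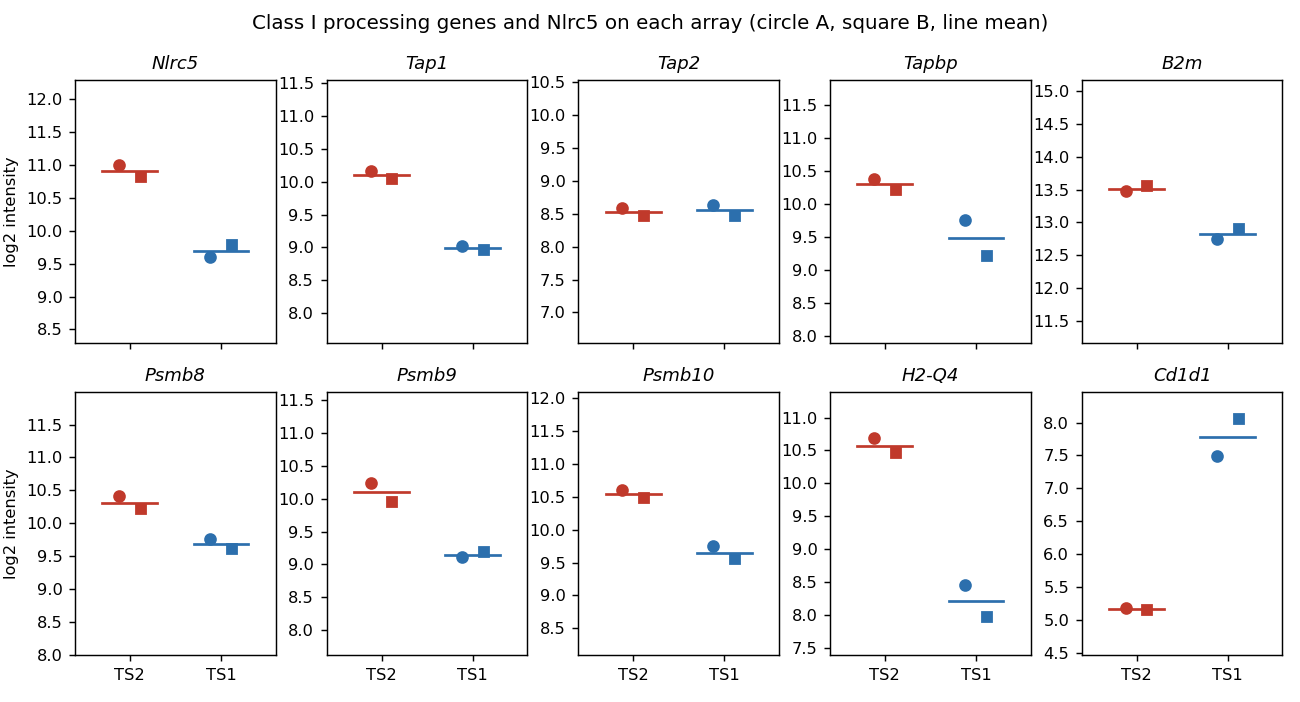
Log2 intensity (vertical axes, each spanning 4 units) of the 10 members on each array, TS2 left of TS1, circles for A, squares for B and a line for the mean. Of the 10 genes, 8 sit higher on the TS2 arrays without overlap, Tap2 overlaps and Cd1d1 is lower in TS2.

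Nlrc5 was measured by more probe sets than any other member, and every one of them read higher in TS2. On its brightest probe set it had log2 intensities of 10.996 and 10.82 on TS2 A and TS2 B, against 9.59 and 9.78 on TS1 A and TS1 B. Both TS2 arrays lay above both TS1 arrays, with a 2.33-fold difference (1.22, SE 0.12, 95% interval 0.92 to 1.52, adjusted p = 0.00515). The brightest probe set gave the second-smallest difference of the 19. Over all 19 the differences ran from 1.20 to 2.63 with a median of 2.10, which is 4.28-fold and spans 2.30-fold to 6.21-fold. The arrays did not overlap on any of the 19, but neither did those of 58.4% of all genes, each read by its brightest probe set. The share over all probe sets was not taken. In a fit over all 35556 probe sets, 18 of the 19 were called higher in TS2, against 2.01% of all probe sets, and the exception had a difference of 1.20 (adjusted p = 0.0639). Probe sets of one gene share the same RNA and are not replicates. The mean of the 19 gave a difference of 2.05 (adjusted p = 0.00262). Choosing the brightest probe set by the mean of linear intensities, an alternative added after the values were seen, gave 2.23 (adjusted p = 0.00281). The call of Nlrc5 held whichever array was left out (adjusted p = 0.0158 to 0.0339).

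The duplicates of Nlrc5 also kept an order across probe sets. TS2 A read above TS2 B on all 19, by a median of 0.36, and TS1 B read above TS1 A on 16 of them, with a median A minus B of -0.17. Both medians lie below the smallest difference between the lines, 1.20. Across the 10 members TS2 A was above TS2 B in 9, all but B2m, against 53% of all genes, and TS1 B was above TS1 A in 4, against 55.6% of all genes.

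**Figure D2:**
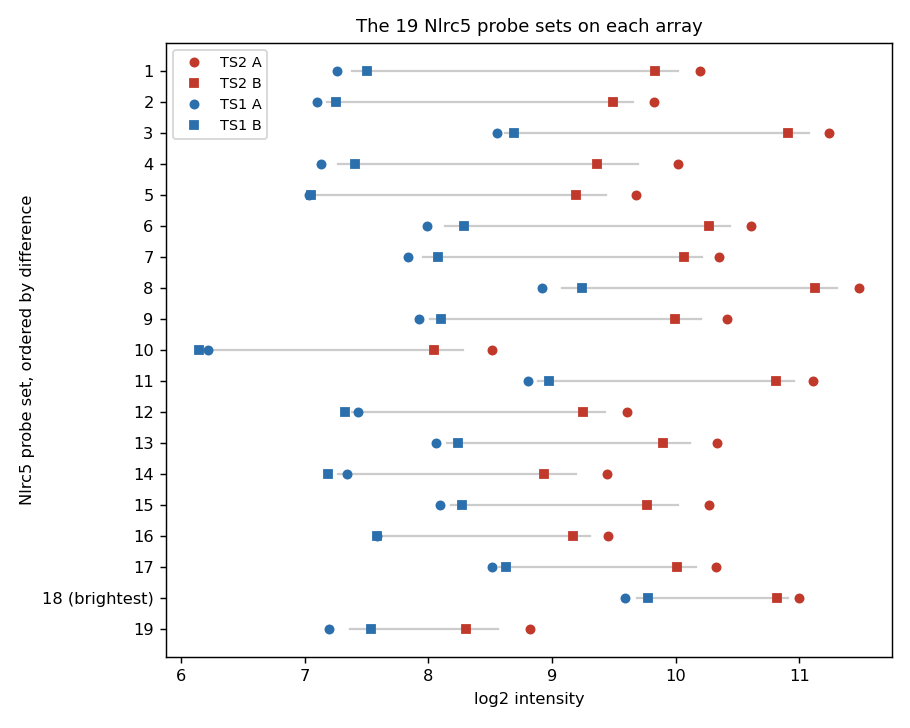
Log2 intensity (horizontal axis) of the 19 Nlrc5 probe sets, ordered by their difference from 2.63 at the top to 1.20 at the bottom, with TS2 in red, TS1 in blue, circles for A, squares for B and a grey line between the line means. On each probe set both TS2 arrays lie to the right of both TS1 arrays, and the brightest is the 18th.

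The called genes with profiles nearest to that of Nlrc5 over the 4 arrays, by Euclidean distance of mean-centred log2 values, were Stim1, a calcium sensor of the endoplasmic reticulum, Ctdsp1, a phosphatase of the RNA polymerase tail, and Cnn2, an actin-binding calponin. Their distances were 0.052 for Stim1, 0.053 for Ctdsp1 and 0.098 for Cnn2. They differed between the lines by 1.18 (Stim1), 1.19 (Ctdsp1) and 1.26 (Cnn2). The Nlrc5 profile was that of its brightest probe set alone, which differed by 1.22, while the median over its 19 probe sets was 2.10. Genes near the other Nlrc5 probe sets were not sought. Over 4 arrays such likeness describes a step between the lines and the order of the duplicates, and nothing more.

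The subunits of the peptide transporter parted. Tap1 had log2 intensities of 10.16 and 10.05 on the TS2 arrays, against 9.02 and 8.97 on the TS1 arrays. It was 2.16-fold higher in TS2 (1.11, SE 0.094, 95% interval 0.87 to 1.35, adjusted p = 0.00356), and the call held whichever array was left out. Tap2, the partner without which the transporter does not form, had 8.58 and 8.47 in TS2, against 8.64 and 8.46 in TS1. Its arrays overlapped and its difference was -0.026 with a 95% interval of -0.30 to 0.25 (SE 0.11, adjusted p = 0.914). The interval of Tap2 lies wholly below that of Tap1, and the genes were not tested against each other. Tap2 was read by a single probe set, as were Tap1 and the other members except Nlrc5.

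Tapbp encodes tapasin, which bridges the transporter and class I molecules. It had log2 intensities of 10.39 and 10.21 in TS2, against 9.75 and 9.21 in TS1. The arrays did not overlap, but the TS1 duplicates lay 0.54 apart, and the difference of 0.82 did not pass (SE 0.20, 95% interval 0.31 to 1.33, adjusted p = 0.0600). It passed without TS1 A (1.09, adjusted p = 0.0197), with the letters A and B as blocks (adjusted p = 0.0480) and with the dimmest 50% of probe sets left out (adjusted p = 0.0473). A further pair of probe sets that the annotation gives to both Tapbp and the ribosomal protein gene Rps3a1 differed by -0.19 and -0.22, without passing (adjusted p = 0.337 and 0.268 over all probe sets). Those were left out because they name several genes.

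Of 17 measured genes of peptide loading and trimming out of 18 listed, which include Tap1, Tap2 and Tapbp, 3 were higher in TS2, 1 was lower and 13 did not pass, against 5.05% higher and 8.45% lower over all genes. Their median difference was 0.018, against 0.013 over all genes. Erap1, the aminopeptidase that trims peptides in the endoplasmic reticulum, had 9.92 and 9.78 in TS2, against 8.65 and 7.54 in TS1. Its difference was 1.76 (SE 0.36, adjusted p = 0.0402), and leaving out TS2 A or TS2 B ended the call (adjusted p = 0.163 and 0.136), as did limma's robust prior (adjusted p = 0.0614). Tapbpl, a tapasin-related peptide editor, was higher by 0.72 (SE 0.10, adjusted p = 0.0154), a call that held without TS1 A but not without any other array (adjusted p = 0.0550 to 0.0920). Thop1, a cytosolic oligopeptidase that degrades peptides, was lower by 0.44 on the log2 scale (difference -0.44, adjusted p = 0.0391), and no omission of a single array kept its call (adjusted p = 0.0660 to 0.195). The chaperones shared with other glycoproteins, named after their values were seen, differed little: Calr by 0.018, Canx by -0.11 and Pdia3 by -0.14, none of them called.

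All 3 inducible proteasome subunits were higher in TS2, and none of the constitutive subunits they replace was. Psmb9 had log2 intensities of 10.24 and 9.95 in TS2, against 9.11 and 9.19 in TS1, a difference of 0.95 (SE 0.13, 95% interval 0.62 to 1.28, adjusted p = 0.0132). Psmb10 had 10.60 and 10.48 in TS2, against 9.75 and 9.55 in TS1, a difference of 0.89 (SE 0.11, 95% interval 0.60 to 1.17, adjusted p = 0.0114). Psmb8 had 10.41 and 10.21 in TS2, against 9.75 and 9.61 in TS1, a difference of 0.63 (SE 0.11, 95% interval 0.33 to 0.92, adjusted p = 0.0292). For each of these genes both TS2 arrays lay above both TS1 arrays, and the excess was 1.93-fold for Psmb9, 1.85-fold for Psmb10 and 1.55-fold for Psmb8. The call of Psmb8 was the least firm: it was lost whichever array was left out (adjusted p = 0.0537 to 0.148) and in the fit over all probe sets (adjusted p = 0.0670). Leaving out TS2 A or TS2 B ended the call of Psmb10 (adjusted p = 0.0703 and 0.0504), and leaving out TS2 A ended that of Psmb9 (adjusted p = 0.0551).

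The constitutive counterparts are Psmb5, which Psmb8 replaces, Psmb6, which Psmb9 replaces, and Psmb7, which Psmb10 replaces. Psmb6 had log2 intensities of 11.17 and 11.27 in TS2, against 11.88 and 11.62 in TS1, a difference of -0.53 (adjusted p = 0.0524). It passed as lower in TS2 with an intensity trend in the prior variance (adjusted p = 0.0305), with a robust one (adjusted p = 0.0477) and with the dimmest 30% (adjusted p = 0.0464) or 50% (adjusted p = 0.0391) of probe sets left out. Psmb5 differed by -0.28 (adjusted p = 0.129), and passed only with the intensity trend among the alternatives tried (adjusted p = 0.0376). Psmb7 differed by -0.050 (adjusted p = 0.759). Set against its counterpart on the same array, each inducible subunit had a higher ratio on both TS2 arrays than on both TS1 arrays. The log2 ratio of Psmb9 to Psmb6 was -0.93 and -1.32 in TS2, against -2.77 and -2.43 in TS1, a shift of 1.48. The ratio of Psmb10 to Psmb7 was -0.37 and -0.49 in TS2, against -1.26 and -1.48 in TS1, a shift of 0.94. The ratio of Psmb8 to Psmb5 was -2.04 and -2.19 in TS2, against -3.00 and -3.04 in TS1, a shift of 0.90. The ratio's own level depends on the probes, so only its shift between the lines can be read. Each shift restates the differences of its gene pair given above and is not a further result. Of 12 measured catalytic subunits and activators, 3 were called higher by limma, these inducible ones, and 0 lower, with 3 and 2 at an unadjusted p under 0.05, against 5.05% called higher and 8.45% lower over all genes. Psme1 and Psme2, the interferon-induced activator subunits, named after their values were seen, differed by 0.21 and 0.13 without passing (adjusted p = 0.258 for Psme1 and 0.735 for Psme2).

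**Figure D3:**
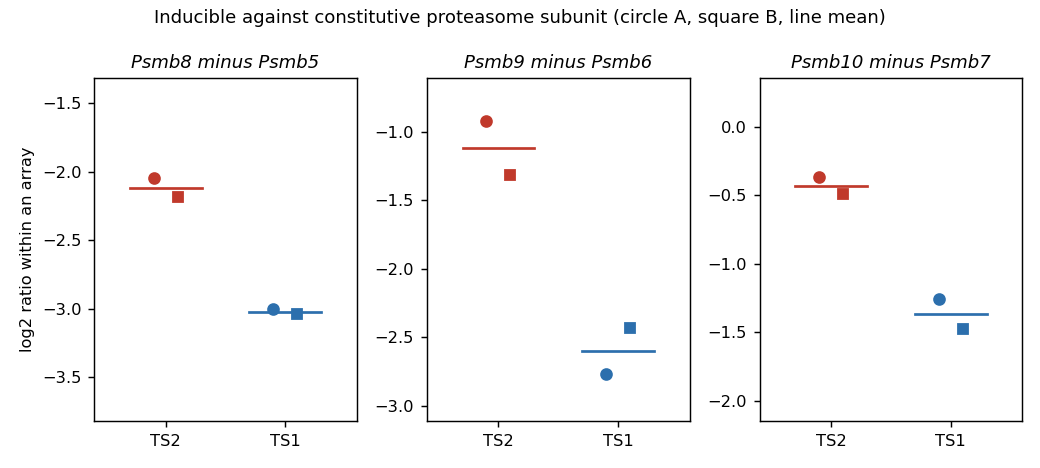
Log2 ratio within each array (vertical axes) of an inducible proteasome subunit to the constitutive one it replaces, TS2 left of TS1, circles for A, squares for B and a line for the mean. All 3 ratios are higher on both TS2 arrays, by a mean of 0.90, 1.48 and 0.94 from left to right.

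Light and heavy chains of class I molecules differed too. B2m, the light chain shared by classical and many class I-like molecules, had log2 intensities of 13.48 and 13.55 in TS2, against 12.74 and 12.91 in TS1. The groups did not overlap, and TS2 was 1.61-fold higher (0.69, SE 0.10, 95% interval 0.43 to 0.95, adjusted p = 0.0169). It ended when TS2 A or TS2 B was left out (adjusted p = 0.0850 and 0.101). H2-Q4, a heavy chain gene of the Q region, had 10.68 and 10.46 in TS2, against 8.45 and 7.97 in TS1. It was 5.15-fold higher in TS2 (2.36, SE 0.19, 95% interval 1.88 to 2.85, adjusted p = 0.00300), and the call held whichever array was left out (adjusted p = 0.00392 to 0.0189). Genes of the Q region are close copies, so reads of H2-Q4 from a relative cannot be set apart here.

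Of 29 listed class I and class I-like heavy chain genes, 17 had a probe set of their own, which leaves out the classical H2-K1 and H2-D1. Of the 17, 4 were higher in TS2, 2 were lower and 11 did not pass, against 5.05% higher and 8.45% lower over all genes. Their median difference was 0.24. Besides H2-Q4, the genes higher in TS2 were H2-T10, by 0.99 (SE 0.16, adjusted p = 0.0220), H2-Q2, by 0.61 (adjusted p = 0.0299), and H2-M10.1, by 0.49 (adjusted p = 0.0273), the last of them dim in both lines. H2-Q2 and H2-M10.1 were chosen for naming once their values had been seen. The call of H2-T10 ended when TS2 A or TS2 B was left out (adjusted p = 0.0985 and 0.106). A further 7 probe sets shared by several class I genes were read in the fit over all probe sets and named after their values were seen. Of these, 4 were called higher in TS2, against 2.01% of all probe sets, and 3 did not pass. A pair that names H2-K1 and H2-D1 together, along with LOC547349, differed by 0.97 (adjusted p = 0.0147) and 0.99 (adjusted p = 0.0164). Both of the pair name the same genes, so they are not separate results. One that names H2-Q6 and H2-Q8 had 11.65 and 11.59 in TS2, against 7.91 and 7.74 in TS1, a difference of 3.80 (SE 0.11, adjusted p = 0.00139). One that names H2-T23 with a pseudogene differed by 1.01 (adjusted p = 0.0172). One that names H2-T9, H2-T22 and H2-T10 differed by 1.38 without passing (adjusted p = 0.159), with the TS1 arrays at 9.02 and 7.79. Those of H2-Q1 with H2-Bl (0.50, adjusted p = 0.0901) and of H2-T3 with H2-T18 (-0.14, adjusted p = 0.702) did not pass either.

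Cd1d1 went the other way. It encodes a class I-like molecule that pairs with B2m but presents lipids to natural killer T cells and does not depend on the peptide transporter. It had log2 intensities of 5.18 and 5.15 in TS2, against 7.50 and 8.05 in TS1. Both TS2 arrays lay far below both TS1 arrays, and TS1 was 6.11-fold higher (difference -2.61, SE 0.19, 95% interval -3.11 to -2.12, adjusted p = 0.00248). The call held whichever array was left out (adjusted p = 0.00184 to 0.0165), although the TS1 duplicates lay 0.55 apart. Its close relative Cd1d2, named after its values were seen, was dim in both lines at 6.02 and 6.01 in TS2, against 5.87 and 6.07 in TS1. Mr1, a class I-like molecule that presents microbial vitamin metabolites to T cells, was the other heavy chain gene lower in TS2 (difference -1.62, SE 0.29, adjusted p = 0.0269). Mr1 had 6.71 and 6.74 in TS2, against 8.77 and 7.91 in TS1, and its call ended when TS2 A or TS2 B was left out (adjusted p = 0.118 and 0.108). Signal over background was not examined, so the size of a difference is uncertain where a gene is dim in a line, as Cd1d1 is in TS2.

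**Figure D4:**
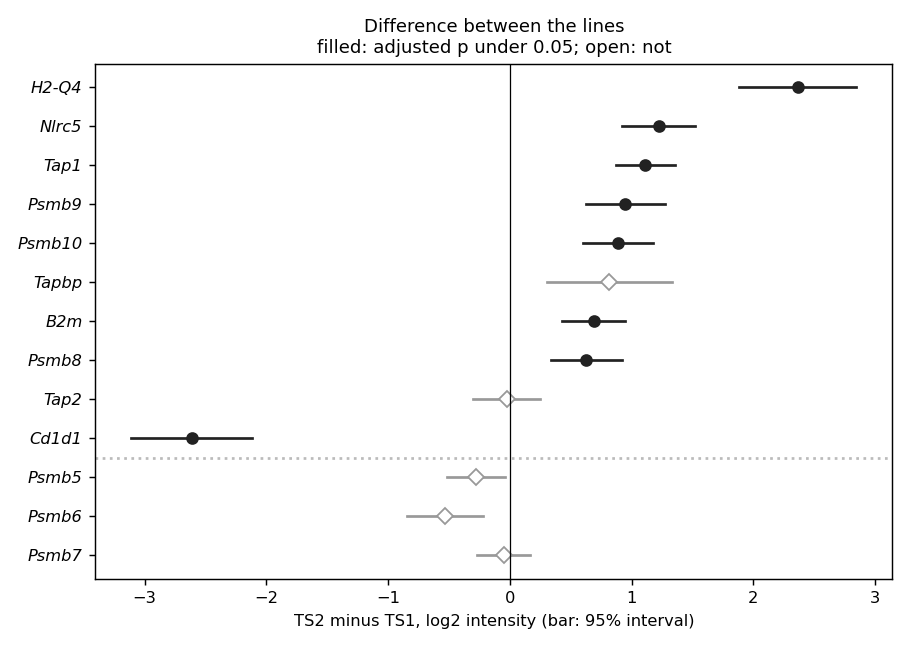
TS2 minus TS1 on the log2 scale (horizontal axis) with limma's 95% interval for the 10 members, ordered by difference, and, under the dotted line, for the constitutive proteasome subunits Psmb5, Psmb6 and Psmb7. Filled circles passed at an adjusted p under 0.05 and open diamonds did not. The differences run from 2.36 for H2-Q4 to -2.61 for Cd1d1, and Tap2 sits at -0.026.

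The members are spread over chromosomes 2, 3, 8 and 17, and 4 of them are neighbours on chromosome 17. In the gene order of GRCm38.p6, Psmb9, Tap1, Psmb8 and Tap2 follow one another inside the class II region. The first 3 were higher in TS2 and Tap2 was not. On the Tap2 side the class II genes H2-Ob (0.16), H2-Ab1 (-0.020), H2-Aa (0.058) and H2-Eb1 (0.0060) did not pass, nor did H2-Oa on the Psmb9 side (-0.050). These 5 were named after their values were seen. On the Psmb9 side H2-DMa, which edits the peptides of class II molecules, had 6.06 and 6.01 in TS2, against 6.62 and 6.67 in TS1. Its difference of -0.61 passed (adjusted p = 0.0159), a call that held without TS1 A and not without any other array (adjusted p = 0.0566 to 0.102). Of the 6 protein-coding genes on each side of Tap1, 10 were measured, and 2 were higher (Psmb9 and Psmb8) and 1 lower (H2-DMa) in TS2. Around Nlrc5 on chromosome 8, 11 of 12 neighbours were measured, and 1 was higher and 1 lower, against 5.05% and 8.45% of all genes. Those, named after their values were seen, were Herpud1, of protein degradation at the endoplasmic reticulum, which differed by 0.76, and the metallothionein gene Mt3, which differed by -1.98.

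**Figure D5:**
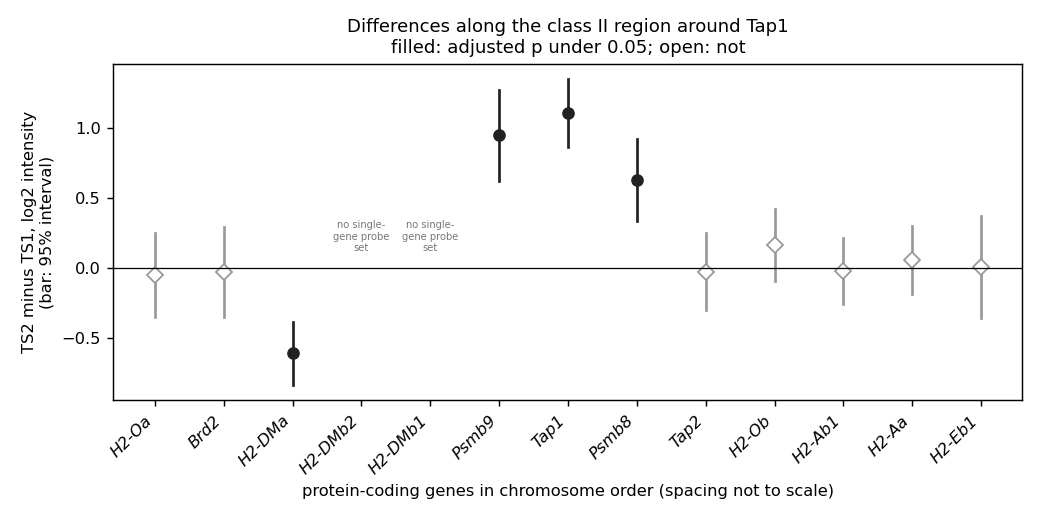
TS2 minus TS1 on the log2 scale (vertical axis, bars for limma's 95% interval) for Tap1 and the 6 protein-coding genes on each side, in chromosome order. Filled circles passed at an adjusted p under 0.05 and open diamonds did not. Psmb9, Tap1 and Psmb8 lie above 0, H2-DMa below, and the intervals of the others, Tap2 among them, include 0. H2-DMb2 and H2-DMb1 have no probe set of their own.

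Of 8 measured class II genes, limma called 0 higher in TS2 (0 at an unadjusted p under 0.05) and 1 lower. The shares over all genes were 5.05% higher and 8.45% lower. Ciita, the class II transactivator related to Nlrc5, had 5.95 and 6.05 in TS2, against 5.77 and 5.81 in TS1 (difference 0.21, adjusted p = 0.205). Among 14 measured NLR genes, the family of Nlrc5, limma called 2 higher, Nlrc5 itself and Nlrc3, and 0 lower, with 2 and 1 at an unadjusted p under 0.05. Over all genes 5.05% were called higher. Nlrc3, a family member that dampens T cell signalling, differed by 0.94 (adjusted p = 0.0480) and kept its call only without TS1 A among the omissions of a single array.

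The factors that act on Nlrc5 or beside it gave a mixed picture. Of 22 measured out of 24 listed, limma called 7 higher in TS2 and 0 lower, with 10 and 0 at an unadjusted p under 0.05, against 5.05% called higher over all genes. Their median difference was 0.25, against 0.013 over all genes. The list holds many genes of interferon signalling, some of which did not pass, among them, named after their values were seen, Ifnar1 (0.030), Ifnar2 (-0.21), Ifngr2 (0.49), Irf9 (0.45) and Jak1 (0.38). Ifngr1, the ligand-binding receptor chain for interferon gamma, had 11.33 and 11.44 in TS2, against 9.83 and 9.10 in TS1, a difference of 1.92 (SE 0.25, adjusted p = 0.0121). Without TS2 A or TS2 B the call of Ifngr1 ended (adjusted p = 0.0558 and 0.0611). Irf1, an interferon-induced transcription factor, had 10.40 and 10.29 in TS2, against 9.33 and 8.79 in TS1, a difference of 1.28 (SE 0.19, adjusted p = 0.0182). That was the brighter of its 2 probe sets, and the mean of both gave a smaller difference of 0.82 (limma, adjusted p = 0.0127). Without TS2 A or TS2 B the call of Irf1 ended too (adjusted p = 0.0928 and 0.0762). Irf8, a related factor best known from myeloid and B cells, had 7.75 and 7.79 in TS2, against 6.30 and 6.13 in TS1, a difference of 1.55 (SE 0.10, adjusted p = 0.00173). The cytokine gene Ifng had 7.53 and 7.23 in TS2, against 6.003 and 5.75 in TS1 (difference 1.51, adjusted p = 0.00590), and its call held whichever array was left out (adjusted p = 0.0143 to 0.0286). Irf2, Jak2 and Tyk2, named after their values were seen, were higher by 0.71, 0.64 and 0.48. The DNA-binding partners of NLRC5 did not pass. Rfx5 differed by 0.13 (adjusted p = 0.489), and, named after their values were seen, Rfxank by 0.36 (adjusted p = 0.110), Rfxap by -0.15, Creb1 by 0.0054 and Nfya by 0.019.

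The labelled cell type was checked against its markers. Of 9 measured T cell markers, 2 were called higher in TS2 and 0 lower, against 5.05% and 8.45% of all genes. They were Cd3e (12.74 and 12.53 in TS2, against 6.45 and 6.41 in TS1) and Cd247 (difference 2.83). Cd4 was dim on all arrays (5.15 to 5.38), as were Cd3d (4.63 to 4.92), Cd2 (4.96 to 5.39), Cd6 (5.16 to 5.35) and Cd5 (5.83 to 6.28). Cd28 read 7.14 on TS2 A and 4.95 on TS2 B, against 4.66 and 4.38 in TS1. Summed intensities of the T cell list ran from 9114 to 10832 in TS2 and from 452 to 1852 in TS1. The upper TS1 value was that of TS1 A, where Cd3g read 10.52, against 6.07 on TS1 B. In TS2 Cd3g read 10.39 on A and 11.98 on B. B cell markers summed to 279 to 286 in TS2 and 262 to 266 in TS1, with 0 of 6 called by limma (0 higher and 1 lower at an unadjusted p under 0.05). Macrophage and dendritic cell markers summed to 309 to 320 in TS2 and 411 to 430 in TS1, with Cd68 lower in TS2 among 6 (adjusted p = 0.0261, and 0.0493 to 0.136 with 1 array left out). Fibroblast markers summed to 391 to 402 in TS2 and 353 to 368 in TS1, with 0 of 6 called by limma (1 higher at an unadjusted p under 0.05). Of 6 mast cell markers limma called 0 higher, with 1 at an unadjusted p under 0.05, and 1 lower, Kit, and the list summed to 8892 to 10121 in TS2 and 7433 to 8493 in TS1, most of it Fcer1a (12.69 to 13.08 on all arrays). Cd2, Cd3d, Cd3g, Cd4, Cd5, Cd6, Cd28, Fcer1a and Mcpt4 were picked from their lists once values had been seen. The part of these markers in the members' differences was not tested.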

How the data were processed

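Total RNA of 4 arrays, 2 of TS2 and 2 of TS1, was measured on Affymetrix mouse gene arrays. The submitters' processing notes name RMA and Affymetrix Expression Console, and no version, filter or genome build is given in the sources used here. Intensities were deposited on the linear scale, as their range shows. RMA normalizes between arrays, so a shift shared by most genes is removed. Here log2 was taken, the 21789 of 35556 probe sets with 1 gene symbol were named from the platform's annotation, updated by gene number through RefSeq (GRCm38.p6), and the brightest by mean log2 stood for each of 19938 genes. All arrays entered one linear model in limma 3.58.1 (lmFit and eBayes, R 4.3.3), with 2 residual and 3.03 prior degrees of freedom. The fit was tested on simulated data. Sequences were searched with Python 3.11.15 and pandas 2.3.3, and figures drawn with matplotlib 3.10.9. The members, lists and tests were chosen with earlier results of these data known. Named genes are the members, 7 fixed pathway genes, up to 4 called genes with the largest differences per list and the 3 called genes nearest to Nlrc5. The number of arrays limits the precision, and detection calls, scan day and slide were not analysed here. Alternatives tried were leaving out each array, a block for the replicate letter, other prior variances or none, centring, quantile normalization, filters on dim probe sets, other choices of probe set and stricter thresholds.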

Additional observations from a re-analysis of the deposited data

How the results depend on the processing

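Over 17 alternatives, no called difference of a member or of the other 23 named genes changed sign. That was largely fixed in advance. The block, other prior variances or none, filters on dim probe sets and stricter thresholds leave each difference they keep as it is. Leaving out 1 array cannot reverse a gene whose arrays do not overlap, as for every called gene here. Only centring, quantile normalization and other choices of probe set could have moved a sign. The count of 2691 genes called over the whole array was 979 to 2198 with 1 array left out, 1666 with the replicate letter as a block, 807 at an adjusted p under 0.01 and 1035 with at least a 2-fold difference required. Members called higher in TS2 numbered 3 to 7 with 1 array left out, 3 at an adjusted p under 0.01, 3 with at least a 2-fold difference and 8 with the replicate block, which added Tapbp. The letters A and B do not show a pairing: the deviations of TS2 A and TS1 A from their line means correlated across genes at -0.029, so the block result concerns a shared letter only. Without moderation of the variances limma's linear model called 0 genes, 0 members higher and 0 lower, with 4156 genes and 7 and 1 members at an unadjusted p under 0.05. With the dimmest 50% of probe sets left out, 0 members were called lower, because Cd1d1 was not among the probe sets kept. Centring moved the median of all genes by 0.024 and quantile normalization by 0.0063. With 1 array left out, the line with a lone array borrows its spread from the other line.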
